A study of Homo sapiens with 6 samples.

Results

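The human CXC chemokine cluster on chromosome 4 runs from CXCL8 to CXCL2 and holds 6 inflammatory genes (CXCL8, CXCL6, CXCL1, CXCL5, CXCL3 and CXCL2) and 3 platelet chemokine genes (PF4V1, PF4 and PPBP). Its accessible sites were taken as the sites of the deposited ATAC-seq table whose midpoint lay in a fixed window around these genes, which gave 55 of 181135 sites, from chromosome 4 position 73653881 to 74134690 (GRCh38). The nearest sites outside this window had midpoints 29468 bases before it and 8109 bases after it. The cells were wild-type K562, a human line established from a chronic myelogenous leukaemia. They were untreated (0 h) or treated with 25 nM PMA, a phorbol ester and activator of protein kinase C, for 6 h or 72 h, which the labels describe as inducing megakaryocyte differentiation. Each time point had 2 libraries, and the medium of the longest cultures was changed during treatment, per the labels. All libraries come from this 1 line, and nothing in the labels says that the 2 libraries of a time point came from separate cultures. The p-values set each difference against a spread between libraries that was estimated over all time points together. That spread may be technical.

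CXC chemokines are small secreted proteins that attract leukocytes through G protein-coupled receptors. CXCL8 (interleukin-8) and the GRO chemokines CXCL1, CXCL2 and CXCL3 attract neutrophils and are classical immediate targets of NF-kB and AP-1 in stimulated cells. PF4 (platelet factor 4) and PPBP (the precursor of beta-thromboglobulin) are made by megakaryocytes and stored in platelet alpha granules, and PF4V1 is a close variant of PF4.

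In ATAC-seq a transposase cuts open chromatin, so reads over a site measure its accessibility. In such bulk samples more cells with an open site and a more open site per cell cannot be told apart. Reads in the listed sites summed to 12258890 to 35548737 per library, with the lowest total in 6 h replicate 1 and 33634403 in 6 h replicate 2. CPM below are read counts relative to library sizes scaled by TMM, which assumes that most sites keep their level. Scaling moved the median change over all tested sites (log2, against 0 h) at 72 h from −0.04 (loess offsets) over 0.29 (TMM) to 1.26 (TMM factors from the 35800 sites at which every library had a peak, below called shared-peak factors), and at 6 h from −0.11 to 0.35. As a check of the cell type, both untreated libraries had a peak within 1000 bases of an end of all 5 erythroid marker genes reported here (GATA1, TAL1, HBG1, HBG2 and EPOR). The same was true of 5 of 8 marker genes of T cells, B cells, monocytes and epithelium, so the check did not set the erythroid type apart.

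A site overlapped the annotated start of 4 of the 9 genes, namely CXCL8, CXCL1, CXCL3 and CXCL2, and each of these sites held the whole 300 bases around that start that RefSeq gives as promoter. No site lay within 1000 bases of the start of CXCL6, CXCL5, PF4V1 or PPBP, or of either end of PF4. The distance from the start to the nearest site was 3192 bases at CXCL6, 5352 at PF4V1, 2934 at PPBP and 13421 at CXCL5. Sequences of the 250 bases before the start follow for the 4 genes with a start site and, for contrast, for CXCL5 and PPBP, which had none. They are from RefSeq (GRCh38.p14), 5′ to 3′ on the strand of the gene, and capitals mark matches to the NF-kB, AP-1, C/EBP, GATA and TATA box motifs on either strand.
CXCL8 (chr4:73740319-73740568, plus strand): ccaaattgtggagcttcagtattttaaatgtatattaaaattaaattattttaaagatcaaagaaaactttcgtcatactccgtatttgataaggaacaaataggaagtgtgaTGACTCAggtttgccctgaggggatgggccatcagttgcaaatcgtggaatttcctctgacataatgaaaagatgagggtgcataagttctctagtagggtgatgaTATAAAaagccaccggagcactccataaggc
CXCL1 (chr4:73869143-73869392, plus strand): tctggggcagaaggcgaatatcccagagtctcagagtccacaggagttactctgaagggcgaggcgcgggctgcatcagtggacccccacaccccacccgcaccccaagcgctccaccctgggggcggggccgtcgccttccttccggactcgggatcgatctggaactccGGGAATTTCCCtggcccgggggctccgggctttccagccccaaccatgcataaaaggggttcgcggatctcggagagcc
CXCL3 (chr4:74038690-74038939, minus strand): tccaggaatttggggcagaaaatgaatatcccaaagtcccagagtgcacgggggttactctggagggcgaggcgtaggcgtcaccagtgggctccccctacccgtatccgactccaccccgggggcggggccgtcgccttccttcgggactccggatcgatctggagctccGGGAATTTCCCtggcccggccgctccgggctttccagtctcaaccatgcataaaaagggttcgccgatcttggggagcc
CXCL2 (chr4:74099196-74099445, minus strand): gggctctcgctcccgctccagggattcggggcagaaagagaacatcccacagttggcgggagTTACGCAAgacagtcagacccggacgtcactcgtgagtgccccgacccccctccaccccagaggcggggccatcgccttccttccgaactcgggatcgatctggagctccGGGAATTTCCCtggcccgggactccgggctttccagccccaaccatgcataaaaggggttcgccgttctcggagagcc
CXCL5 (chr4:73998678-73998927, minus strand): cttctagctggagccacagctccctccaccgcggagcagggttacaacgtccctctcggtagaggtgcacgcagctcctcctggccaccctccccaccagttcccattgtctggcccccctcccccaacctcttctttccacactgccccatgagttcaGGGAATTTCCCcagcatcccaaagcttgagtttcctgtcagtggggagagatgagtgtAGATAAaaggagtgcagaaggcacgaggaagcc
PPBP (chr4:73988191-73988440, minus strand): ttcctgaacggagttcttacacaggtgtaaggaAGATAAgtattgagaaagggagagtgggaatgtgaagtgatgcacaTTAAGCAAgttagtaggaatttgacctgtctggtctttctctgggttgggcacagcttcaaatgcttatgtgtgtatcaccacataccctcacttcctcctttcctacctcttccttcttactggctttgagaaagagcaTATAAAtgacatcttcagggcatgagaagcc

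The promoter table held 8 of the 9 genes (not PF4), and 7 motifs were searched on both strands of its 300-base sequences. The NF-kB motif was matched in CXCL6, CXCL1, CXCL5, CXCL3 and CXCL2, each time by GGGAATTTCC on the gene's strand and by an overlapping match on the other strand, beginning 78 to 91 bases before the start. Of all 35116 promoters in the table, 5.91% held this motif. CXCL8 had no exact match, but its sequence holds tggaatttcc, which differs from GGGAATTTCC in the first base only. The search counted exact matches and does not show that a promoter lacks a near match. The AP-1 motif (TGANTCA) was matched in CXCL8 only, by TGACTCA at 137 bases before the start, against 7.71% of all promoters. C/EBP (TTGCNNAA, 10.5% of all promoters) was matched in CXCL2 and PPBP. The motif of GATA factors, AGATAA (10.3% of all promoters), was matched in CXCL6, CXCL5 and PPBP, where a further match lay just after the start. At CXCL6 and CXCL5 it began 32 and 33 bases before the start, close to the place of the TATA box at CXCL8 and PPBP (31 bases). The TATA box (TATAAA, 11.5%) was matched in CXCL8, PPBP and PF4V1, RUNX (TGTGGT, 13.1%) in PPBP and PF4V1, and ETS (CCGGAAG, 10.3%) in CXCL1 and PF4V1. These matches describe letters in a window and are not measured binding. The genes are duplicates of one another, so the matches are not independent: the aligned promoters were 82.5% identical between CXCL1 and CXCL3, 72.95% between CXCL1 and CXCL2, 73.7% between CXCL3 and CXCL2 and 83.1% between CXCL6 and CXCL5. The treatment of reads that match several copies is not given in the sources used here.

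Of the 55 sites, 53 passed the filter on low counts. The other 2, peak126006 and peak126009, had 0 to 9 counts in each library and were not tested. Tests were run with edgeR's quasi-likelihood method on all 177759 tested sites, with Benjamini-Hochberg adjustment over all of them, and a site was called at an adjusted p under 0.05. At 6 h against 0 h, 24 cluster sites (45.3%) were called higher, against 23.4% of all tested sites, and 3 (5.66%) lower, against 16.8%. At 72 h against 0 h, 12 (22.6%) were higher, against 38.2%, and 21 (39.6%) lower, against 29.2%. At 72 h against 6 h, 3 (5.66%) were higher, against 22.1%, and 26 (49.1%) lower, against 20.9%. Each comparison shares libraries with the other two. The median log2 fold changes of the 53 sites were 0.59, −0.40 and −0.82 in this order, beside 0.05, 0.29 and 0.03 over all tested sites. Read by the 2 medians, the cluster stood above the general level at 6 h and below it at 72 h. Of the 53 sites, 5 were nearest to RASSF6 and 3 to MTHFD2L rather than to a chemokine gene, and 2 of each were called higher at 6 h. Among sites between CXCL8 and CXCL2 only, 17 were called higher and 3 lower at 6 h, and 8 higher and 16 lower at 72 h against 0 h. The 72 h calls depended on the scaling: shared-peak factors gave 22 higher and 10 lower against 0 h, total counts 17 and 17, and loess offsets 8 and 24. The shares over all sites moved too. With shared-peak factors 41.5% of cluster sites were higher and 18.9% lower, against 57.8% and 10.99% of all tested sites, and with total counts 32.1% were higher and 32.1% lower, against 48.0% and 19.5%. With loess offsets 15.1% were higher and 45.3% lower, against 29.7% and 33.7%. Against 6 h shared-peak factors gave 5 higher (9.43%) and 17 lower (32.1%), against 43.3% and 5.24% of all tested sites. At 6 h against 0 h loess offsets gave 22 higher (41.5%) and 6 lower (11.3%), against 19.0% and 21.8% of all tested sites.

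**Figure D1:**
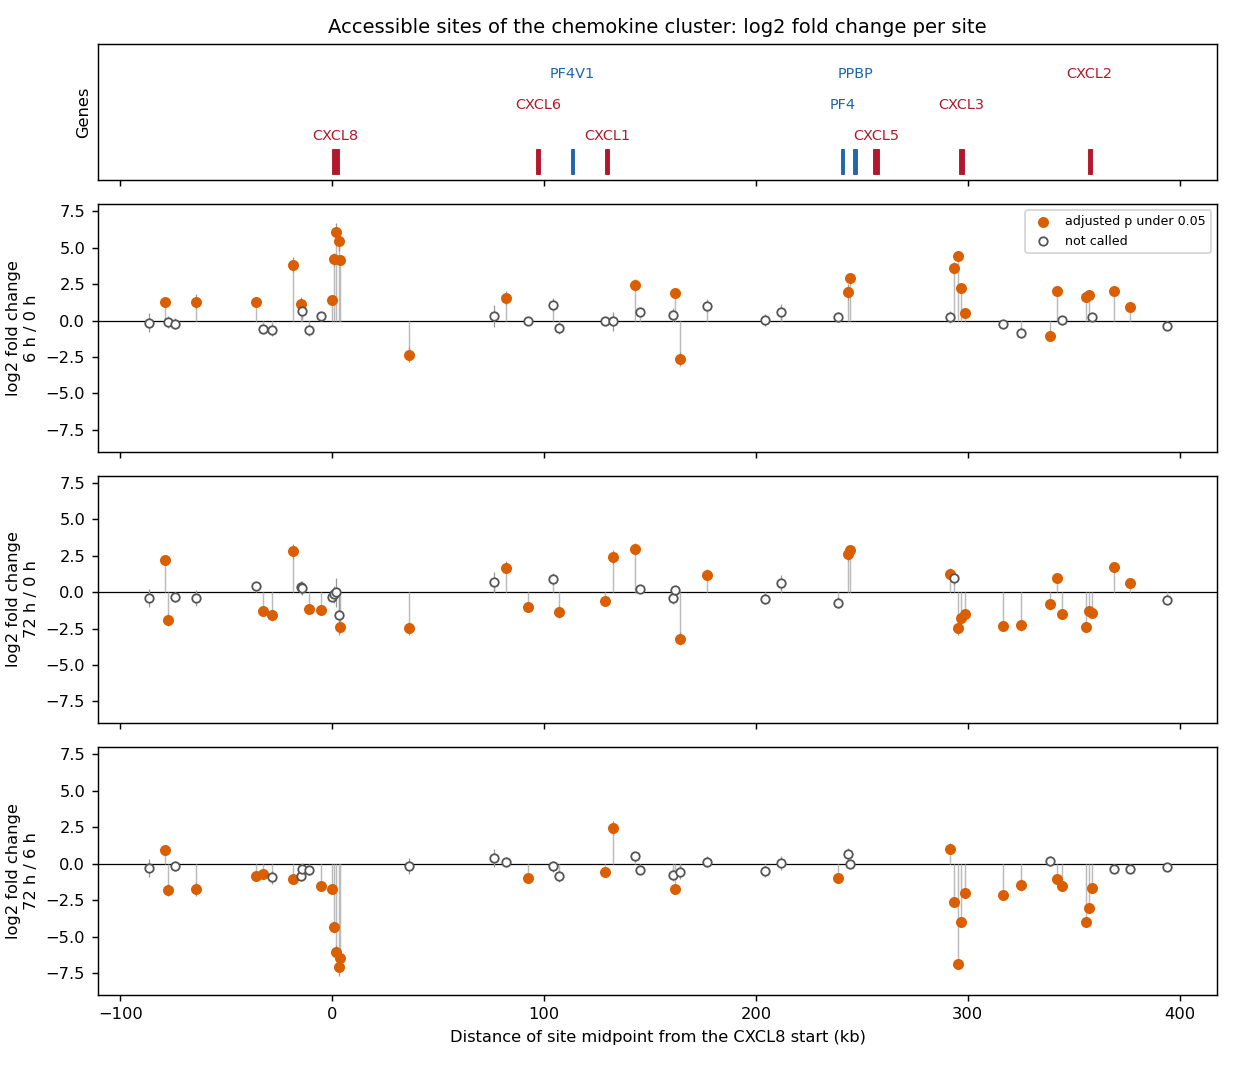
Log2 fold change of each of the 53 tested sites (vertical axis, with grey lines for the standard error and for the distance from 0) against its distance from the CXCL8 start in kb, with a panel for each of the 3 comparisons. Filled points are called at an adjusted p under 0.05, and genes are drawn to scale in red (inflammatory) and blue (platelet). The highest values at 6 h, up to 6.07, stand over CXCL8 and beside CXCL3, where the lowest values at 72 h against 6 h, down to −7.06 at peak126004, also lie.

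Summed over its 55 sites, the cluster held 251 and 267 CPM in the 0 h libraries, 434 and 451 at 6 h, and 158 and 163 at 72 h. Every 6 h library was above every other library and both 72 h libraries were below both 0 h libraries on this scale. With shared-peak factors the 72 h sums were 233 and 235 and the 0 h sums 192 and 195, so the order of these 2 groups depends on the scaling, while the 6 h sums were the highest under the 4 scalings tried. Libraries of 2 against 2 cannot give an exact permutation p below 0.3333, so the sums were not tested. A deposited peak overlapped 20 and 24 of the 55 sites in the 0 h libraries, 27 and 36 at 6 h and 30 in each library at 72 h. The 36 belonged to the deeper 6 h library. Peaks in all 6 libraries were found at 13 of the 55 sites, beside 35800 of all 181135 sites, and 6 of the 55 had none. Peak numbers per library over all sites were not computed, so those of the cluster are not read as particular to it.

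Of the 4 start sites, those of CXCL8 and CXCL3 rose at 6 h and those of CXCL3, CXCL2 and CXCL1 fell at 72 h on the TMM scale. The site at the CXCL8 start (peak126001, chromosome 4, 73740267 to 73741014) had 4.48 and 6.22 CPM untreated, 11.9 and 16.5 CPM after 6 h and 4.25 and 4.37 CPM after 72 h. Both 6 h libraries were above all others. On the log2 scale the change was 1.41 ± 0.24 SE after 6 h (edgeR adjusted p 7.2e-05) and −0.32 ± 0.24 SE (edgeR adjusted p 0.25) at 72 h against 0 h, and −1.74 ± 0.23 SE (adjusted p 6.6e-06) at 72 h against 6 h. The 72 h value against 0 h changed direction, to 0.65 (adjusted p 0.021), with shared-peak factors.

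The CXCL3 start (peak126031, 74038262 to 74039731) had 39.3 and 43.6 CPM untreated, 64.2 and 53.1 CPM after 6 h and 13.7 and 15.6 CPM after 72 h. Its 3 groups did not overlap. The fitted log2 change was 0.50 ± 0.15 SE after 6 h (edgeR adjusted p 0.013) and −1.498 ± 0.16 SE (adjusted p 4.0e-08) at 72 h. The rise at 6 h was not called under RLE (adjusted p 0.080) or DESeq2 (0.13), without 0 h replicate 1 (0.12) or without 6 h replicate 1 (0.15), and loess offsets ended the call of the fall at 72 h (−0.31, 0.063). The CXCL2 start (peak126039, 74098797 to 74099788) had 33.0 and 45.7 CPM untreated, 45.9 and 46.4 CPM after 6 h and 13.6 and 15.2 CPM after 72 h. At 6 h its log2 fold change of 0.23 ± 0.16 SE (edgeR adjusted p 0.28) was not called, although it was under loess offsets (0.46, adjusted p 0.015), with shared-peak factors (0.53, 0.0092) and without 0 h replicate 2 (0.48, 0.041). Then at 72 h it fell by 1.46 on the log2 scale (SE 0.17), with an edgeR adjusted p of 1.5e-07.

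The CXCL1 start (peak126014, 73868626 to 73869798) had 11.05 and 14.7 CPM untreated, 12.7 and 12.5 CPM after 6 h and 8.75 and 8.50 CPM after 72 h. The 6 h libraries lay between the untreated ones, with a log2 fold change of −0.04 ± 0.20 SE (edgeR adjusted p 0.90). At 72 h the value was −0.59 ± 0.20 SE (adjusted p 0.014). That call ended under total counts (−0.08) and loess offsets (−0.42), without 0 h replicate 2 (−0.36) and without either 72 h library (−0.61 and −0.57), and the sign changed with shared-peak factors (0.39, adjusted p 0.083). Of the 3 GRO genes, whose promoters are alike in sequence, the starts of CXCL3 and CXCL2 had the highest accessibility per length, 26.04 and 33.5 CPM per kb over the 6 libraries, against 9.69 at CXCL1 and 10.6 at CXCL8.

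**Figure D2:**
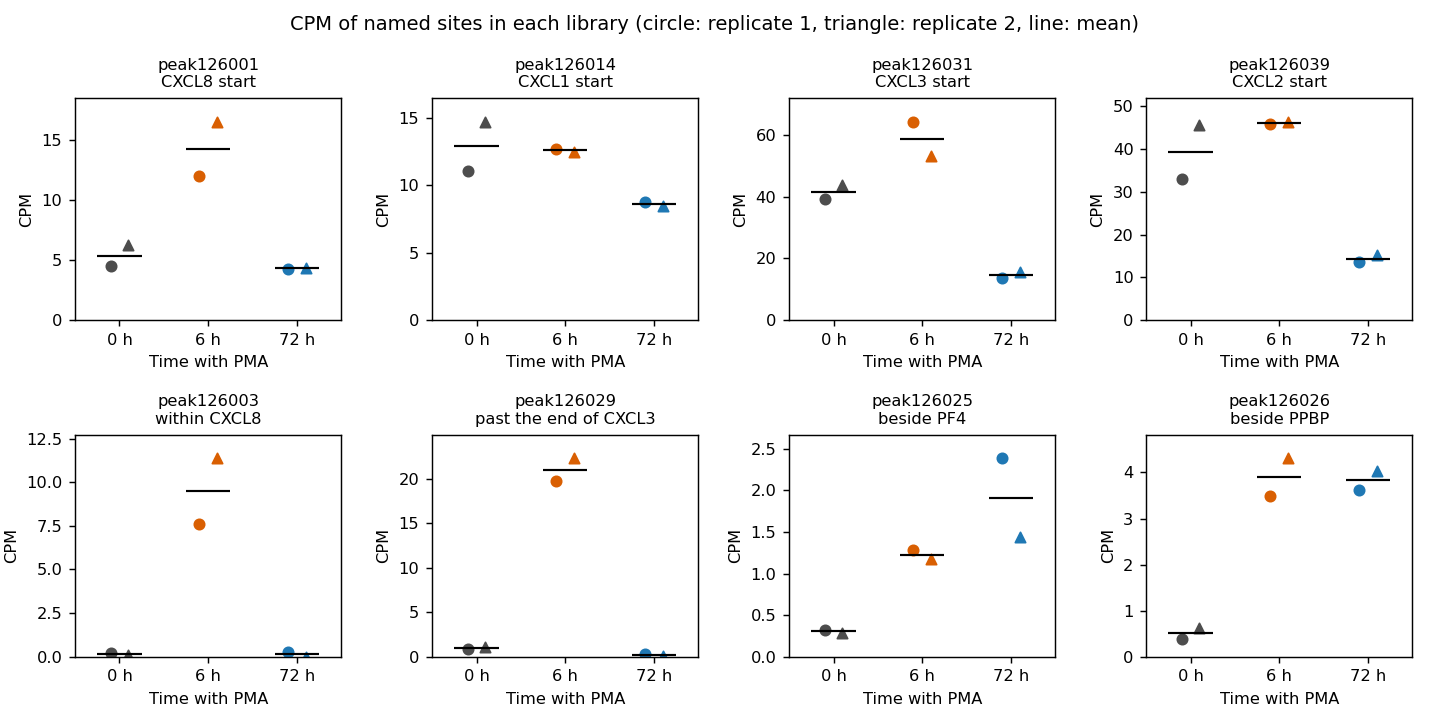
CPM (vertical axis, from 0) of 8 sites in each library at 0, 6 and 72 h, with circles for replicate 1, triangles for replicate 2 and a line at the mean. The sites within CXCL8 and past the end of CXCL3 are high at 6 h alone, whereas the site beside PPBP is between 3.50 and 4.30 CPM at both 6 and 72 h.

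The 4 largest rises at 6 h were not at the starts but within and just past the ends of CXCL8 and CXCL3, and sites at the same places of CXCL2 rose less. Within CXCL8, peak126003 (73742239 to 73742858, midpoint 1980 bases after the start) had 3 and 2 counts untreated, 89 and 359 counts after 6 h and 11 and 0 counts after 72 h. These are 0.195 and 0.0956 CPM, then 7.59 and 11.4, then 0.285 and 0. The 6 h libraries were far above the others, and the 0 h and 72 h libraries overlapped. In log2 units the change was 6.07 ± 0.60 SE after 6 h (edgeR adjusted p 5.9e-08), −0.02 ± 1.01 SE (adjusted p 0.99) at 72 h against 0 h and −6.09 ± 0.52 SE (adjusted p 9.6e-08) at 72 h against 6 h. Without 72 h replicate 1 the value against 0 h was −4.83 (adjusted p 0.023). The last value was −10.84 without 72 h replicate 1 and −5.00 without 72 h replicate 2, called in both cases.

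Its neighbour peak126002 (73741197 to 73741557, within CXCL8) had 0.390 and 0.287 CPM untreated, 4.78 and 7.31 CPM after 6 h and 0.414 and 0.189 CPM after 72 h. On the log2 scale the change was 4.20 ± 0.45 SE after 6 h (edgeR adjusted p 2.1e-07) and −4.35 ± 0.41 SE (adjusted p 1.7e-07) at 72 h against 6 h, the latter −4.94 without 72 h replicate 1. At the end of CXCL8, peak126004 (73743605 to 73743900, overlapping the gene end) had 2 and 1 counts untreated, 29 and 160 counts after 6 h and 0 and 2 counts after 72 h. From 3 counts in all at 0 h, the CPM ratio at 6 h was 52.8, with an exact 95% interval of 17.8 to 258 that covers counting error only. At 72 h the ratio to 6 h was 0.00566 (0.000681 to 0.0207), from 2 counts. Both changes were called when each library was left out in turn, with fitted 6 h values of 4.76 to 6.18 and fitted values at 72 h against 6 h of −9.49 to −6.17.

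Past the end of CXCL8, peak126005 (73744033 to 73744850, 317 bases beyond the gene) had 0.975 and 0.861 CPM untreated, 13.2 and 18.7 CPM after 6 h and 0.155 and 0.189 CPM after 72 h. The 3 groups did not overlap, and the 72 h libraries were below the untreated ones. Log2 fold changes were 4.14 ± 0.31 SE (edgeR adjusted p 1.2e-09) at 6 h, −2.37 ± 0.46 SE (adjusted p 0.00013) at 72 h against 0 h and −6.50 ± 0.35 SE (adjusted p 2.0e-10) at 72 h against 6 h. The authors' deposited table gives 3.91 at 6 h and −2.41 at 72 h for this site.

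At CXCL3 the same course was seen. The site peak126029 (74035517 to 74036321, 268 bases past the gene end) had 0.845 and 1.1 CPM untreated, 19.8 and 22.3 CPM after 6 h and 0.259 and 0.0944 CPM after 72 h, again without overlap between groups. It rose by 4.41 ± 0.30 SE on the log2 scale at 6 h (edgeR adjusted p 4.3e-10) and its log2 fold change at 72 h against 0 h was −2.48 ± 0.46 SE (adjusted p 7.1e-05), and −3.32 without 72 h replicate 1. At 72 h against 6 h the value was −6.89 ± 0.34 SE (adjusted p 1.0e-10), and −7.68 or −6.27 without 72 h replicate 1 or 2. Within CXCL3, peak126030 (74037028 to 74037611) had 2.79 and 4.16 CPM untreated, 18.2 and 15.7 CPM after 6 h and 1.29 and 0.802 CPM after 72 h, with values on the log2 scale of 2.263 ± 0.26 SE at 6 h (edgeR adjusted p 6.1e-07) and −1.75 ± 0.30 SE at 72 h (adjusted p 2.7e-05).

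At CXCL2 the sites downstream of the start had more CPM per kb before treatment than those at CXCL8. A deposited peak lay over peak126037 in 0 h replicate 1 and both 6 h libraries, and over peak126038 in the 6 h libraries only. Past the gene end, peak126037 (74096074 to 74096876, 164 bases beyond it) had 10.7 and 9.27 CPM untreated, 29.8 and 31.3 CPM after 6 h and 2.05 and 1.72 CPM after 72 h. Log2 fold changes were 1.62 ± 0.19 SE (edgeR adjusted p 7.3e-07) after 6 h and −2.40 ± 0.21 SE (adjusted p 4.8e-09) at 72 h. Within the gene, peak126038 (74097505 to 74098196) had 6.24 and 5.21, then 21.3 and 18.0, then 2.05 and 2.60 CPM. The fitted log2 change was 1.78 ± 0.23 SE after 6 h (edgeR adjusted p 1.8e-06) and −1.29 ± 0.24 SE (adjusted p 6.8e-05) at 72 h, the latter not called with shared-peak factors (−0.33, 0.23). At 72 h these CXCL2 sites were thus below their untreated level on the TMM scale, as was peak126005 past the end of CXCL8 (−2.37). The CXCL8 sites peak126002, peak126003 and peak126004 were not called different from their untreated level. Their log2 fold changes were −0.15, −0.02 and −1.58, from only 12, 5 and 3 counts over the 0 h libraries. The part of low counts in the missing calls was not tested.

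**Figure D3:**
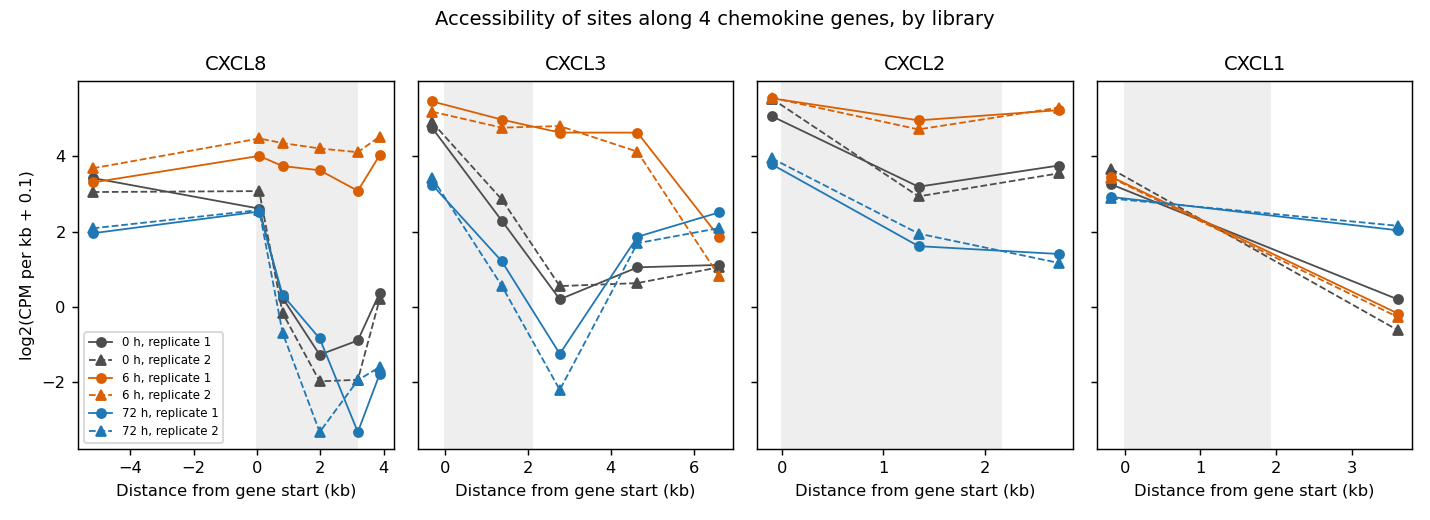
Accessibility as log2(CPM per kb + 0.1) on the vertical axis against distance from the gene start in kb, for sites around CXCL8, CXCL3, CXCL2 and CXCL1, with 1 line per library (grey 0 h, orange 6 h, blue 72 h) and the gene shaded. Across CXCL8 and CXCL3 the 6 h lines drop far less than the 0 h and 72 h lines.

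Farther past the end of CXCL3, peak126028 (74033914 to 74034177, 2412 bases beyond it) had 0.520 and 0.382 CPM untreated, 6.48 and 4.56 CPM after 6 h and 0.932 and 0.826 CPM after 72 h. With it, 9 sites had a midpoint 500 to 5000 bases downstream of the start of CXCL8, CXCL3 or CXCL2. All 9 were called higher at 6 h against 0 h, with log2 fold changes from 1.62 to 6.07, and all 9 lower at 72 h against 6 h, from −7.06 to −2.62, where the lowest value is a fitted one at peak126004 that rests on 2 counts at 72 h. This set was chosen after its values were seen. Of its sites, peak126002, peak126003, peak126004, peak126005, peak126029, peak126030 and peak126038 had a deposited peak in 6 h libraries only. The sites peak126002, peak126003 and peak126004 also passed the low-count filter only through their 6 h counts. Such sites may be high at 6 h partly because of how they came to be listed or tested. The shares that follow are therefore not a like comparison. Of the 8292 tested sites at the same distance from the starts of all protein-coding genes in the promoter table, 23.2% were called higher at 6 h against 0 h and 38.4% lower at 72 h against 6 h. Downstream of the CXCL1 start there was a single such site, peak126015 (73872789 to 73873223, 1481 bases past the gene). It had 0.455 and 0.239 CPM untreated, 0.341 and 0.316 CPM after 6 h and 1.73 and 1.89 CPM after 72 h, with a log2 fold change of −0.04 ± 0.65 SE (edgeR adjusted p 0.96) after 6 h and 2.42 ± 0.50 SE (adjusted p 0.00021) at 72 h. It was high at 72 h alone, and no library had a deposited peak there. This site passed the low-count filter only through its 72 h counts, so it may be high at 72 h partly because of how it came to be tested.

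The balance between a gene's downstream sites and its start site can be read within a library, free of the scaling between libraries. At CXCL8 the 4 downstream sites held 27.4% and 17.2% of the counts of downstream and start sites together at 0 h, then 70.1% and 72.0%, then 16.8% and 8.87% at 72 h. At CXCL3 the 3 downstream sites held 9.57% and 11.5%, then 40.9% and 44.5%, then 15.3% and 9.93%. At CXCL2 the shares of the 2 downstream sites were 33.9% and 24.1%, then 52.7% and 51.5%, then 23.2% and 22.2%. For these 3 genes the exact binomial 95% intervals of both 6 h libraries lay above those of the other 4 libraries. Their downstream sites are the set described above, chosen after its values were seen, so a high 6 h share follows in part from that choice. The intervals cover counting error only. Over sites of the whole series, the 2 libraries of a time point differed by 3.54 (72 h) to 5.52 (0 h) times the variance of counting error. The nearest approach was at CXCL2, where the lower bound was 49.7% in 6 h replicate 2 and the upper bound 37.4% in 0 h replicate 1. At CXCL1 the share was 3.95% and 1.60%, then 2.61% and 2.47%, then 16.5% and 18.2%. Here the 72 h libraries were the high ones. The downstream site of CXCL1, peak126015, was tested only through its 72 h counts, so a high 72 h share may follow in part from that.

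**Figure D4:**
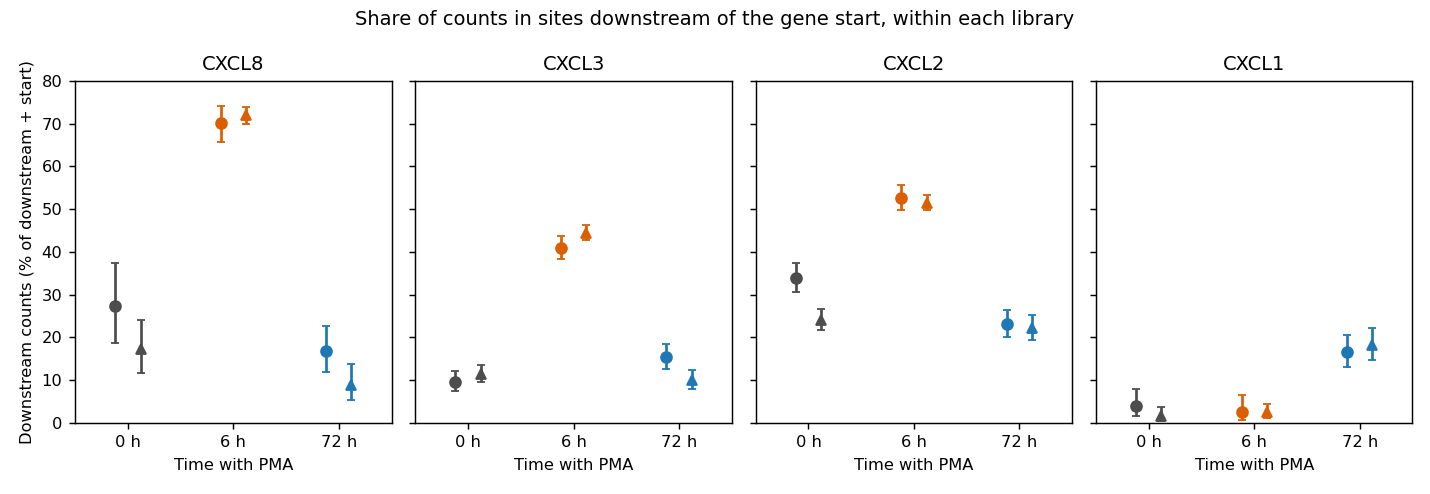
Counts in the sites downstream of a gene start as a percentage of downstream and start site counts together, in each library (circles replicate 1, triangles replicate 2), with exact binomial 95% intervals that cover counting error only. The 6 h libraries stand highest at CXCL8, CXCL3 and CXCL2, and the 72 h libraries at CXCL1.

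Deposited peaks differed between the 2 libraries of 6 h, of which replicate 1 had the lower depth. In peak126002, peak126003, peak126004 and peak126029 a peak was called in 6 h replicate 2 alone, although 6 h replicate 1 had 29 to 232 counts there. The part of depth in this difference was not tested. The sites peak126005 and peak126030 had peaks in both 6 h libraries and in no other.

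Sites between the genes took several courses. Upstream of CXCL8, peak125993 (73704389 to 73705164, 35405 bases from the gene) had 7.08 and 7.51 CPM untreated, 17.5 and 18.6 CPM after 6 h and 9.29 and 10.3 CPM after 72 h, a log2 fold change of 1.31 ± 0.20 SE (edgeR adjusted p 2.0e-05) after 6 h and 0.43 ± 0.20 SE (adjusted p 0.061) at 72 h. The latter depended on the scaling and was called with total counts (0.93, adjusted p 0.00022), loess offsets (0.64, 0.0057) and shared-peak factors (1.39, 1.8e-06). Closer to the gene, peak125996 (73721839 to 73722434) had 0.390 and 0.191, then 2.73 and 5.09, then 1.501 and 2.41 CPM. It rose by 3.85 ± 0.50 SE on the log2 scale at 6 h (edgeR adjusted p 2.6e-06), or 3.22 without 6 h replicate 2, and was 2.80 ± 0.52 SE above 0 h at 72 h (adjusted p 6.9e-05). In the left part of the window, peak125989 (73661423 to 73662099, 40792 bases from RASSF6) rose in steps, with 1.88 and 1.24 CPM untreated, 3.75 and 3.64 CPM after 6 h and 7.12 and 7.06 CPM after 72 h. All 3 comparisons were called, with log2 fold changes of 1.26 (6 h) and 2.20 (72 h) against 0 h and 0.94 at 72 h against 6 h, and edgeR adjusted p-values of 0.0024, 8.9e-07 and 0.0055.

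Downstream of CXCL1, peak126016 (73883144 to 73883786) opened and was not lost, with 0.325 and 0.526 CPM untreated, 1.88 and 2.75 CPM after 6 h and 3.39 and 3.42 CPM after 72 h. Its log2 fold changes against 0 h were 2.44 ± 0.43 SE (edgeR adjusted p 0.00011) and 2.95 ± 0.41 SE (adjusted p 1.9e-06). A site 33062 bases past CXCL1, peak126020 (73904370 to 73904941), closed early, from 4.16 and 3.25 CPM to 0.171 and 0.791 at 6 h and 0.518 and 0.283 at 72 h. In log2 units the change was −2.66 ± 0.47 SE after 6 h (edgeR adjusted p 0.00011), −4.45 without 6 h replicate 2, and −3.20 ± 0.46 SE (adjusted p 2.7e-06) at 72 h. Beyond CXCL8, peak126007 (73776462 to 73776784) closed in the same manner, from 1.88 and 2.25 CPM to 0.341 and 0.443 at 6 h and 0.362 and 0.378 at 72 h, with log2 fold changes of −2.33 ± 0.49 SE (edgeR adjusted p 0.00060) and −2.47 ± 0.44 SE (adjusted p 4.8e-05). Each of these sites had no overlap between the 0 h libraries and the later ones.

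In the interval between CXCL3 and CXCL2, peak126032 (74056334 to 74057723) was among the strongest sites of the cluster, with 16.5 CPM per kb. It had 37.9 and 29.0 CPM untreated, 28.7 and 28.6 CPM after 6 h and 7.07 and 6.09 CPM after 72 h, so that it was low at 72 h alone. On the log2 scale the change was −0.22 ± 0.17 SE after 6 h (edgeR adjusted p 0.31) and −2.34 ± 0.18 SE (adjusted p 9.4e-10) at 72 h. Downstream of CXCL3, peak126027 (74031760 to 74032389) went the other way, with 1.30 and 1.24 CPM untreated, 2.22 and 1.04 CPM after 6 h and 3.52 and 2.62 CPM after 72 h. Its rise of 1.27 ± 0.38 SE on the log2 scale at 72 h (edgeR adjusted p 0.0051) was not called under loess offsets (0.60) or without 72 h replicate 1 (1.03), and its value at 72 h against 6 h, 1.04 ± 0.37 SE (adjusted p 0.027), was not called under loess offsets (0.69) or DESeq2 (0.95). That call also ended without 6 h replicate 2 (0.52), without 72 h replicate 1 (0.83) and without 72 h replicate 2 (1.26).

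The platelet chemokine genes had few sites. Of the 6 sites for which PF4V1, PF4 or PPBP was the nearest gene, 2 (33.3%) were called higher at 6 h and none lower, against 23.4% and 16.8% of all tested sites. After 72 h, 2 (33.3%) were higher and 1 (16.7%) lower, against 38.2% and 29.2%. Both higher sites lie between PF4 and PPBP, which stand side by side. The site nearer to PPBP, peak126026 (73984632 to 73985256, 1183 bases past the gene end), had 0.390 and 0.622 CPM untreated, 3.50 and 4.30 CPM after 6 h and 3.62 and 4.04 CPM after 72 h. It was thus 7.71-fold above 0 h at 6 h and 7.57-fold at 72 h, with log2 fold changes of 2.92 ± 0.38 SE (edgeR adjusted p 2.8e-06) and 2.87 ± 0.37 SE (adjusted p 8.1e-07) and no call between 72 h and 6 h (−0.05 ± 0.28 SE, adjusted p 0.91). The site nearer to PF4, peak126025 (73983862 to 73984289, 1738 bases from the gene), had 0.325 and 0.287, then 1.28 and 1.17, then 2.38 and 1.44 CPM. The log2 fold changes were 1.98 ± 0.54 SE (edgeR adjusted p 0.0059) and 2.63 ± 0.50 SE (adjusted p 9.0e-05). Neither site was called lower at 72 h against 6 h. The site nearest to PF4, peak126024 (73978849 to 73979389, 1422 bases from the gene), was called lower in that comparison, with a log2 fold change of −0.96 (edgeR adjusted p 0.033). The only site called lower at 72 h against 0 h, peak126013 (73847474 to 73847944), lay 5352 bases from PF4V1, with a log2 fold change of −1.35 (adjusted p 0.0065) at 72 h. These 2 sites were named after their values were seen.

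Of the 39 tested sites nearest to an inflammatory gene, 18 (46.2%) were called higher and 3 (7.69%) lower at 6 h, against 23.4% and 16.8% of all tested sites. After 72 h, 7 (17.9%) were higher and 19 (48.7%) lower, against 38.2% and 29.2%, with median log2 fold changes of 0.64 at 6 h and −0.59 at 72 h. The 6 platelet sites had medians of 0.42 and 0.10. No test of the difference between these sets was run. By gene, the sites nearest CXCL8 held 8 of 14 called higher at 6 h, those nearest CXCL3 4 of 7, CXCL2 3 of 6, CXCL1 2 of 8 and CXCL6 1 of 4. At 72 h against 6 h, 9 of 14 were lower at CXCL8, 6 of 7 at CXCL3 and 5 of 6 at CXCL2, against 20.9% of all tested sites. At CXCL1 2 of 8 (25%) were lower, which is near that general share. CXCL5 was the nearest gene of no site, and it lies in the widest stretch without a site, 46503 bases between peak126026 and peak126027.

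The neighbouring windows of the same length were described with the same fit. In the window before the cluster, 3 of 24 tested sites were called higher at 6 h and 3 lower, with a median log2 fold change of −0.28. In the window after it, 22 of 65 sites were higher and 5 lower at 6 h, with a median of 0.47, and 27 (41.5%) were lower at 72 h against 6 h, where the share over all tested sites was 20.9%. The right-hand window, with 33.8% of its sites higher and 7.69% lower, was thus closer to the cluster (45.3% and 5.66%) at 6 h than the left-hand one (12.5% and 12.5%). The shares of all tested sites were 23.4% and 16.8%. At 72 h against 0 h the left-hand window was the closer one, with 16.7% higher and 41.7% lower (median −0.53). The right-hand one had 33.8% and 29.2% (median −0.03), the cluster 22.6% and 39.6% (median −0.40) and all tested sites 38.2% and 29.2%. These differences were not tested.

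Other genes of chemokine signalling and inflammation, with their surroundings of 10000 bases, held 80 tested sites for 20 genes, 19 of them (23.8%) higher and 11 (13.8%) lower at 6 h, against 23.4% and 16.8% of all tested sites. After 72 h, 34 (42.5%) were higher and 22 (27.5%) lower, against 38.2% and 29.2%, so the list as a whole was near the general level. The genes of the CC ligands CCL2, CCL3, CCL4 and CCL5, which attract monocytes and lymphocytes, had 10 of 16 sites (62.5%) higher and none lower at 6 h, and 12 (75.0%) higher and none lower at 72 h. Their median log2 fold changes were 1.36 and 2.51, so the middle of these sites stood higher at 72 h than at 6 h. The receptors CXCR1, CXCR2, CXCR3 and ACKR1 had 2 of 14 sites (14.3%) higher and 1 (7.14%) lower at 6 h, and 3 (21.4%) higher and 3 (21.4%) lower at 72 h. Among other CXC ligands (CXCL9 to CXCL14 and CXCL16) 4 of 20 sites were higher and 3 lower at 6 h, and 10 and 5 at 72 h, and CXCL10 had no site. The inflammatory genes IL6, IL1B, TNF, TNFAIP3 and ICAM1 had 3 of 30 sites (10.0%) higher and 7 (23.3%) lower at 6 h, and 9 (30.0%) higher and 14 (46.7%) lower at 72 h.

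The protein-coding genes most like the cluster in their summed accessibility over the 6 libraries were SLC38A2, FHL2, LOC124903276, NUMB and NUMBL. The measure was the root mean square difference of log2(summed CPM + 1), each centred on its mean, and it ran from 0.07 to 0.14 for these 5 genes. It rests on 6 libraries and describes a like course over time alone.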

How the data were processed

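ATAC-seq was measured in 6 libraries of K562 cells. The authors' deposited table gives whole-number read counts of each library over 181135 sites, together with log2 fold changes and p-values of their own. The authors also deposited 1 peak list per library, whose columns hold a score, a fold enrichment and −log10 p and q values. The submitters' processing notes name Trim Galore 0.4.3, BWA 0.7.17, SAMtools 1.9, deepTools 3.0.1, MACS2, bedtools 2.26, DESeq and build hg38, with no role or order. How the sites were chosen, and how duplicate or multiply mapped reads were treated, is not given in the sources used here.

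Counts were fitted in edgeR 4.0.16 (R 4.3.3, limma 3.58.1) with TMM factors, filterByExpr (which removed 3376 sites) and 1 quasi-likelihood model of time over all 6 libraries, and p-values were adjusted by Benjamini-Hochberg over 177759 sites. The common biological coefficient of variation was 0.166. The procedure was tested on simulated data. Alternatives were RLE, total-count, loess and shared-peak scaling, DESeq2 1.42.0, no filter, a stricter call, a narrower window, a fit on 4 libraries, a replicate block and leaving out each library. Peaks were overlapped by at least 1 base with bedtools 2.31.1. Promoters were aligned with Biopython 1.88. Coordinates are 1-based. Exon annotation was not used here, and neither were the authors' class names.

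The members and lists were chosen with earlier results of these data known. Sites named were those at the 9 gene starts (or within 1000 bases), the 6 with the highest CPM per kb and, for each comparison and direction, the 4 with the largest called change without overlap between libraries. This gave 22 sites, and other sites are named to complete a gene or a count. The cell type check was planned at gene starts and was made within 1000 bases of both gene ends, because few of those genes were in the promoter table. 1 listed marker gene is not reported here. The likeness of genes was measured over 11303 protein-coding genes with at least 5 tested sites within 10000 bases of the gene.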

Additional observations from a re-analysis of the deposited data

How the results depend on the processing

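Of the 51 called changes at the 22 sites named by the rule, 42 kept their direction and their call in each of 14 other fits (other scalings, DESeq2, no filter, the replicate block, the 4 libraries compared and the libraries left out in turn), and 44 passed the stricter call. Most of these 22 sites were named for a large called change in the same data, so the 42 and the 44 follow in part from that choice. Shared-peak factors gave 22 cluster sites higher and 10 lower at 72 h against 0 h, and 5 higher and 17 lower at 72 h against 6 h. The shares of all tested sites also moved, to 57.8% and 10.99%, and to 43.3% and 5.24%. Total counts gave 5 higher (9.43%) at 72 h against 6 h, against 32.1% of all tested sites. Loess offsets gave 6 lower (11.3%) at 6 h, against 21.8%. The stricter call gave 1 higher at 72 h against 6 h, and its share over all sites was not computed. DESeq2 called 20 higher and 4 lower at 6 h, beside 30654 higher and 30541 lower of all 177759 tested sites. Leaving out 1 library at a time gave median log2 fold changes of the cluster sites of 0.53 to 0.75 at 6 h and −0.54 to −0.33 at 72 h. At 72 h against 6 h they were −0.82 to −0.72. Over all tested sites the medians then ran from −0.003 to 0.075, from 0.27 to 0.32 and from 0.03 to 0.08 in the same order. The log2 ratio of summed CPM was 0.62 (RLE), 0.91 (total counts) and 1.07 (shared-peak factors) at 6 h. In the same order it was −0.87, −0.19 and 0.28 at 72 h, and against 6 h it was −1.10 (total counts) and −0.79 (shared-peak factors). With at least 50% of a site covered, 16, 22 and 25.5 sites held a peak on average at 0, 6 and 72 h.

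Changes of sign were as follows, with total counts first and shared-peak factors second where both are given. At 6 h they were 0.10 and 0.26 at peak126014, 0.086 and 0.25 at peak126015, 0.069 (shared-peak) at peak126032 and −0.090 (loess) at peak126027. At 72 h against 0 h they were 0.18 and 0.65 at peak126001, 0.34 and 0.80 at peak126002, 0.47 and 0.93 at peak126003 and 0.39 (shared-peak) at peak126014. At 72 h against 6 h they were 0.22 and 0.53 at peak126007, 0.32 and 0.62 at peak126026, and, with shared-peak factors, 0.13 at peak126014 and 0.14 at peak126020. Leaving out 1 library moved the 6 h value between −0.29 and 0.19 at peak126014, −0.48 and 0.37 at peak126015, −0.28 and 0.75 at peak126027 and −0.047 and 0.48 at peak126039. It moved the 72 h value against 0 h between −0.81 and 0.31 at peak126002 and −4.83 and 1.01 at peak126003, and that against 6 h between −0.26 and 0.16 at peak126007, −0.99 and 1.24 at peak126020 and −0.17 and 0.18 at peak126026. With all 6 libraries and TMM none of these values was called except those of peak126014 at 72 h, but 2 were called with a library left out: −4.83 at peak126003 (without 72 h replicate 1) and 0.48 at peak126039 (without 0 h replicate 2). The cause of these changes was not tested.

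With the replicate block, 24 sites were higher and 4 lower at 6 h. At 72 h the numbers were 13 and 21 against untreated cells, and 3 and 26 against 6 h. Over all 177759 tested sites they were 42730 and 32262, then 68570 and 52658, then 40364 and 39160. The block changed 1 of 66 named values: peak125993 at 72 h against 0 h was called (0.43, adjusted p 0.040). Deviations of same-numbered libraries correlated at 0.08, 0.05 and 0.09. Such low values cannot decide whether same-numbered libraries share a culture or a batch. The names of their count columns also share an ending, which was not interpreted. The lowest depth, in 6 h replicate 1, limits sites with few counts.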

Other observations

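The authors' deposited table also gives each site a class name. In the cluster 39 sites are named static, 10 upLate, 4 downEarly and 2 upEarly. The site within CXCL8 with the largest change at 6 h, peak126003, is named upLate there, with log2 fold changes of 4.86 at 6 h and −0.16 at 72 h in the authors' deposited table. Over all sites of the authors' deposited table the median log2 fold change at 6 h and 72 h was 0.74 and 2.257 for downEarly and 0.81 and 2.261 for upEarly, so the names did not follow the direction of the deposited fold changes.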
